A study of Homo sapiens with 24 samples.

Results

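AP-1 is a family of basic leucine zipper (bZIP) transcription factors that bind DNA only as pairs. JUN proteins can pair with one another or with a FOS protein, FOS proteins need a JUN partner, and the pairs bind the sequences TGACTCA (the TPA response element) or TGACGTCA (the cyclic AMP response element, CRE). Their genes are known as early targets of growth factor, stress and mechanical signals, passed on through MAP kinases. The 8 genes described here are the FOS family (FOS, FOSB, FOSL1 and FOSL2), the JUN family (JUN, JUNB and JUND) and ATF3, a stress-induced bZIP factor that pairs with JUN proteins. They were found by symbol in a table of 26450 genes, and each had 1 row.

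The study cultured human cell lines in dual-axis rotating capillary containers (DRCC), a device that grows spheroids under rotation, and sequenced their RNA. PANC-1 comes from a human pancreatic ductal carcinoma, and HEK293T comes from human embryonic kidney and makes the SV40 large T antigen; the labels call both epithelial. There were 3 libraries for every combination of line and format: DRCC at 30 rpm, DRCC at 1 rpm, AggreWell, which is a plate of microwells that gathers cells into aggregates without rotation, and flat culture (2D). This gives 8 groups and 24 libraries. The labels name no drug and no genetic change that sets any group apart. Each line is 1 cell line, and seeding density and culture time are not given in the sources used here. Values are FPKM, fragments scaled to the length of the gene model and to library size, so levels of different genes can be set beside each other.

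The promoters of FOS, FOSB, JUN and ATF3 are shown here because they hold CRE-like sequences, a kind of site that bZIP factors are known to bind. RefSeq windows (GRCh38.p14) of 250 bases before to 50 bases after a gene's start were held for 7 of the 8 genes, and not for FOSL1. FOS and FOSB had the largest rises in PANC-1 among FOS genes, and JUN and ATF3 had the largest rises in HEK293T at both DRCC speeds. The windows lie at chr14:75278578-75278877 (plus strand), chr19:45467746-45468045 (plus strand), chr1:58783998-58784297 (minus strand) and, for the first of 2 ATF3 windows, chr1:212565157-212565456 (plus strand). Each is written 5′ to 3′ on the gene's strand, with matches to TGACGT or TGACNTCA on either strand in capitals.
FOS: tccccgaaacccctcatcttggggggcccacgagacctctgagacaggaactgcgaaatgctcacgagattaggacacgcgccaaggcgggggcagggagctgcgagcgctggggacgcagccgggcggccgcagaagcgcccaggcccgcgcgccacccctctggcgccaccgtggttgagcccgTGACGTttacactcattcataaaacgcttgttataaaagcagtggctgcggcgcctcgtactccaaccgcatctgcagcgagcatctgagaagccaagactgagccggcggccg
FOSB: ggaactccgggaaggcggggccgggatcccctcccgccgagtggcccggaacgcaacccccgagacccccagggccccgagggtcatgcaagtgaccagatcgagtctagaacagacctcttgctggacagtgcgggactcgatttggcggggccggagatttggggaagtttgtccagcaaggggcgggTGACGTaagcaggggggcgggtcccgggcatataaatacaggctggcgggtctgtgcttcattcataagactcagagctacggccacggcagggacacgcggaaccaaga
JUN: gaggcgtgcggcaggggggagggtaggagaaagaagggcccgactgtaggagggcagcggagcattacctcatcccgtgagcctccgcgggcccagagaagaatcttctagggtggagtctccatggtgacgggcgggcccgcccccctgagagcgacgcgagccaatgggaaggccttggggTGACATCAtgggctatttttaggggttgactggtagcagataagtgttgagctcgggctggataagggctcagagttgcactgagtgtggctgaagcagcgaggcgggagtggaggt
ATF3: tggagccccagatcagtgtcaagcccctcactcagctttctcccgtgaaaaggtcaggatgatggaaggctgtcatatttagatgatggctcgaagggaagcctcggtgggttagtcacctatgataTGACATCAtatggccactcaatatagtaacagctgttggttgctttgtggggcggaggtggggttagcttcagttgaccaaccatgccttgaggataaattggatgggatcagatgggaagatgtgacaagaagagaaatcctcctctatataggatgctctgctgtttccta

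The match lies 64 bases before the start in FOS, 60 in FOSB, 67 in JUN and 123 in ATF3. FOS and FOSB hold TGACGT, the start of the CRE, whereas JUN and ATF3 hold the same 8 letters, TGACATCA. Over the 7 genes with a window, 4 (FOS, FOSB, FOSL2 and JUND) held TGACGT, against 7.98% of 35116 RefSeq promoter windows of the same length. The longer TGACNTCA was in 3 (JUN, JUND and ATF3), against 7.72% of windows; in JUND it is TGACGTCA, which also contains TGACGT on both strands. TGANTCA, which includes the TPA response element, was in 1 (FOSL2), against 7.71%. The CArG box, the site of serum response factor, was in 0 of the 7 genes' windows, against 1.29%. These counts are per gene, while the background is per window. ATF3 was counted through its first window, and its second held no match to any of these motifs. Sequence outside the windows was not searched, so a CArG box further from a gene's start would not be counted here. These matches describe letters in the windows and were not measured as bound sites.

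Between 32021638 and 39556154 fragments per library were recovered from the steps of the FPKM values. Replicates of a group correlated at 0.997 to 0.999 on the log2 scale and differed by more than counting noise in every pair. The sources used here do not say whether replicates came from separate cultures, so the p-values below rest on how far libraries of a group scatter, and that scatter may be technical. Fragments of mitochondrially encoded genes made up 1.60% ± 0.0269 in PANC-1 DRCC 30 rpm, 2.37% ± 0.0717 in DRCC 1 rpm, 4.28% ± 0.0300 in AggreWell and 4.33% ± 0.310 in 2D (SD, n = 3 each). In HEK293T the shares were 4.23% ± 0.0904, 3.47% ± 0.0909, 3.51% ± 0.0693 and 4.77% ± 0.0849 in the same order of formats. Of 10 PANC-1 markers, 8 were higher in every PANC-1 library than in every HEK293T library, KRT7 and KRT19 among them. ANXA3 went the other way, at 0 to 0.108 FPKM in PANC-1 and 1.01 to 4.02 FPKM in HEK293T. The ductal keratins were low in PANC-1, with KRT7 at 0.768 to 1.61 FPKM and KRT19 at 0.631 to 3.27 FPKM. KRT17 was at no more than 0.198 FPKM in PANC-1, against 0.0836 to 2.78 FPKM in HEK293T. In HEK293T the PANC-1 list summed to 62.7 to 69.7 FPKM at 30 rpm and 50.6 to 58.4 FPKM at 1 rpm. It summed to 39.3 to 42.6 FPKM in AggreWell and 23.2 to 28.2 FPKM in 2D there. Over the PANC-1 libraries it summed to 2985 to 3838 FPKM. Of 9 HEK293T markers in the table, 5 were higher in every HEK293T library, while PAX2 (1.26 to 1.88 FPKM) and TUBB3 were lower there than in PANC-1. Of the markers of other cells, PTPRC (leukocytes), PECAM1 and CDH5 (endothelium) and COL1A2 and DCN (fibroblasts) were at or below 0.0303 FPKM in every library. Other markers of these lists were not at 0 in PANC-1, where CD68, a lysosomal marker of macrophages, was at 47.7 to 61.8 FPKM, CD14 at 0.286 to 1.99 FPKM and KDR, an endothelial receptor, at 0.167 to 4.65 FPKM. The endothelial list summed to 0.216 to 0.277 FPKM at 30 rpm, 1.60 to 1.84 FPKM at 1 rpm, 2.09 to 2.14 FPKM in AggreWell and 4.28 to 4.68 FPKM in 2D in PANC-1. The leukocyte list summed to 51.4 to 54.4 FPKM, 48.01 to 52.96 FPKM, 49.6 to 50.3 FPKM and 53.1 to 62.4 FPKM in the same formats. The fibroblast list summed to 12.6 to 13.4 FPKM at 30 rpm, 10.98 to 11.9 FPKM at 1 rpm, 5.46 to 5.76 FPKM in AggreWell and 7.73 to 8.13 FPKM in 2D in PANC-1, nearly all of it COL1A1. The HEK293T leukocyte list summed to 2.89 to 3.97 FPKM at 30 rpm and 2.53 to 3.00 FPKM at 1 rpm. It summed to 1.06 to 1.68 FPKM in AggreWell and 0.541 to 0.711 FPKM in 2D. The HEK293T fibroblast list summed to 6.09 to 7.04 FPKM at 30 rpm and 6.42 to 7.27 FPKM at 1 rpm. It summed to 4.68 to 5.12 FPKM in AggreWell and 3.59 to 3.75 FPKM in 2D. COL1A1 was at 3.44 to 6.84 FPKM, CD68 at 0.431 to 3.87 FPKM and PDGFRA at 0.121 to 0.346 FPKM in HEK293T. The part of these markers in the results was not tested.

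In PANC-1, both rotating formats carried more AP-1 mRNA of nearly every kind than 2D, and AggreWell changed them in both directions. At 30 rpm against 2D, 7 of the 8 genes rose by at least 2-fold, beside 10.9% of all 11585 genes tested. FOSL1 was the exception and fell, by less than 2-fold (0 of 8 fell past 2-fold, beside 3.26%). Among the 7, FOS and FOSB were below 1 FPKM in every 2D library. They entered the test only through libraries of other formats, where they are high. Having entered it carries no weight for this count or for those below. At 1 rpm, 6 rose by at least 2-fold, beside 10.5% of genes, JUN rose by less, and FOSL1 fell by more than 2-fold, beside 3.72%. In AggreWell only FOS rose by at least 2-fold, beside 1.22%, and FOSL1 fell by 2-fold, beside 0.224%. FOSL1 lay on the 2-fold line there. With mitochondrially encoded genes left out it was at -0.90 and 0 AP-1 genes fell past 2-fold, and with voom 2 AP-1 genes rose past 2-fold, FOS and FOSB (1.09). A gene was called at a limma adjusted p below 0.05, and a fold is on the log2(FPKM + 1) scale, which understates changes of genes near or below 1 FPKM. The bulk libraries cannot tell fewer cells with a transcript from less of it per cell.

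Calls of any size were common, so their background is high. At 30 rpm 7 AP-1 genes were called higher and 1 lower, beside 53.6% and 32.2% of genes. At 1 rpm the counts were also 7 and 1, beside 52.3% and 33.9%. In AggreWell 4 were higher (FOS, FOSB, JUNB and JUND) and 3 lower (FOSL1, JUN and ATF3), beside 45.9% and 24.1%, which is near the background. The median change of the 8 genes was 2.56 at 30 rpm, 1.64 at 1 rpm and 0.10 in AggreWell, beside 0.17, 0.15 and 0.10 for all genes. Scaling by median ratios removes that general shift: of all called genes, 50.4%, 50.0% and 47.1% were then higher in these 3 comparisons, against 62.5%, 60.7% and 65.6% as deposited. With that scaling the AggreWell count of higher AP-1 genes was 2. Mitochondrial shares moved with the rotating formats; with those genes left out and the rest rescaled, all 8 genes kept their direction and call at 30 rpm and at 1 rpm against 2D.

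The rotating formats also stood above AggreWell in PANC-1. All 8 genes were higher at 30 rpm than in AggreWell, 7 of them by at least 2-fold, beside 45.4% and 6.65% of genes. None was lower, beside 37.8% of genes lower and 3.3% lower past 2-fold. At 1 rpm against AggreWell 6 were higher and FOSL1 was lower, beside 43.7% and 38.4%, and 4 of the 6 rose by at least 2-fold, beside 5.17%. Speed went with the same direction for each gene: all 8 were higher at 30 rpm than at 1 rpm, beside 36.2% of genes, and FOS, JUN and ATF3 were so by at least 2-fold, beside 0.76%. With mitochondrially encoded genes left out, 36.9% of called genes were higher in this last comparison, against 53.1% as deposited, and all 8 AP-1 genes kept their call. These comparisons share libraries with those against 2D.

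HEK293T cells had another pattern, in which the most AP-1 genes passed 2-fold in AggreWell, on the log2(FPKM + 1) scale, and JUN and ATF3 had the largest changes under rotation. In AggreWell 5 genes rose by at least 2-fold against 2D (FOS, FOSL2, JUN, JUND and ATF3), beside 5.43% of 12548 genes tested. At 30 rpm 3 did so (FOS, JUN and ATF3), beside 11.6%, and at 1 rpm 2 (JUN and ATF3), beside 12.2%. In 2D, FOS reached 1 FPKM in 1 library and FOSL2 in none. Both entered the test through the 3D libraries, where they are high, so having entered it carries no weight for these counts. With a pseudocount of 0.1 and with voom, 4 passed 2-fold higher at 30 rpm and 4 at 1 rpm (FOS, FOSL2, JUN and ATF3). At these speeds 0 fell past 2-fold, beside 3.87% at 30 rpm and 2.67% at 1 rpm. Calls of any size numbered 6 higher and 1 lower at 30 rpm, beside 49.6% and 35.5%. They numbered 7 and 1 at 1 rpm, beside 53.1% and 31.7%, and 7 and 0 in AggreWell, beside 48.6% and 26.8%. These fits had no replicate block, with which FOSL1 lost its call at 1 rpm. The median change of the 8 genes was 0.71, 0.80 and 1.44 at 30 rpm, at 1 rpm and in AggreWell, beside 0.13, 0.18 and 0.12 for all genes. With median-ratio scaling 49.8%, 50.4% and 48.8% of called genes were higher in these comparisons, against 58.3%, 62.6% and 64.5% as deposited, and FOS at 30 rpm was then under 2-fold at 0.95. With mitochondrially encoded genes left out, 77.0% were higher in HEK293T AggreWell and 78.5% in PANC-1 AggreWell.

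Set against AggreWell in HEK293T, DRCC at 30 rpm had 2 genes higher, both by at least 2-fold (JUN and ATF3), beside 39.9% and 2.24% of genes. It had 5 lower (FOS, FOSB, FOSL2, JUNB and JUND), beside 38.7%, and FOS was so by at least 2-fold, beside 3.13%. At 1 rpm 3 were higher (JUN, JUNB and ATF3) and 4 lower (FOS, FOSB, FOSL2 and JUND), beside 41.8% and 33.8%. Of these, ATF3 rose by at least 2-fold, beside 2%, and FOS fell by at least 2-fold, beside 1.51%. Between the speeds, JUN and ATF3 were higher and JUNB and FOSL2 lower at 30 rpm, beside 19.6% and 32.9%. None of these passed 2-fold, as did 0.0239% of genes upward. For that pair of formats median-ratio scaling gave 51.9% of called genes higher, against 37.3% as deposited.

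**Figure D1:**
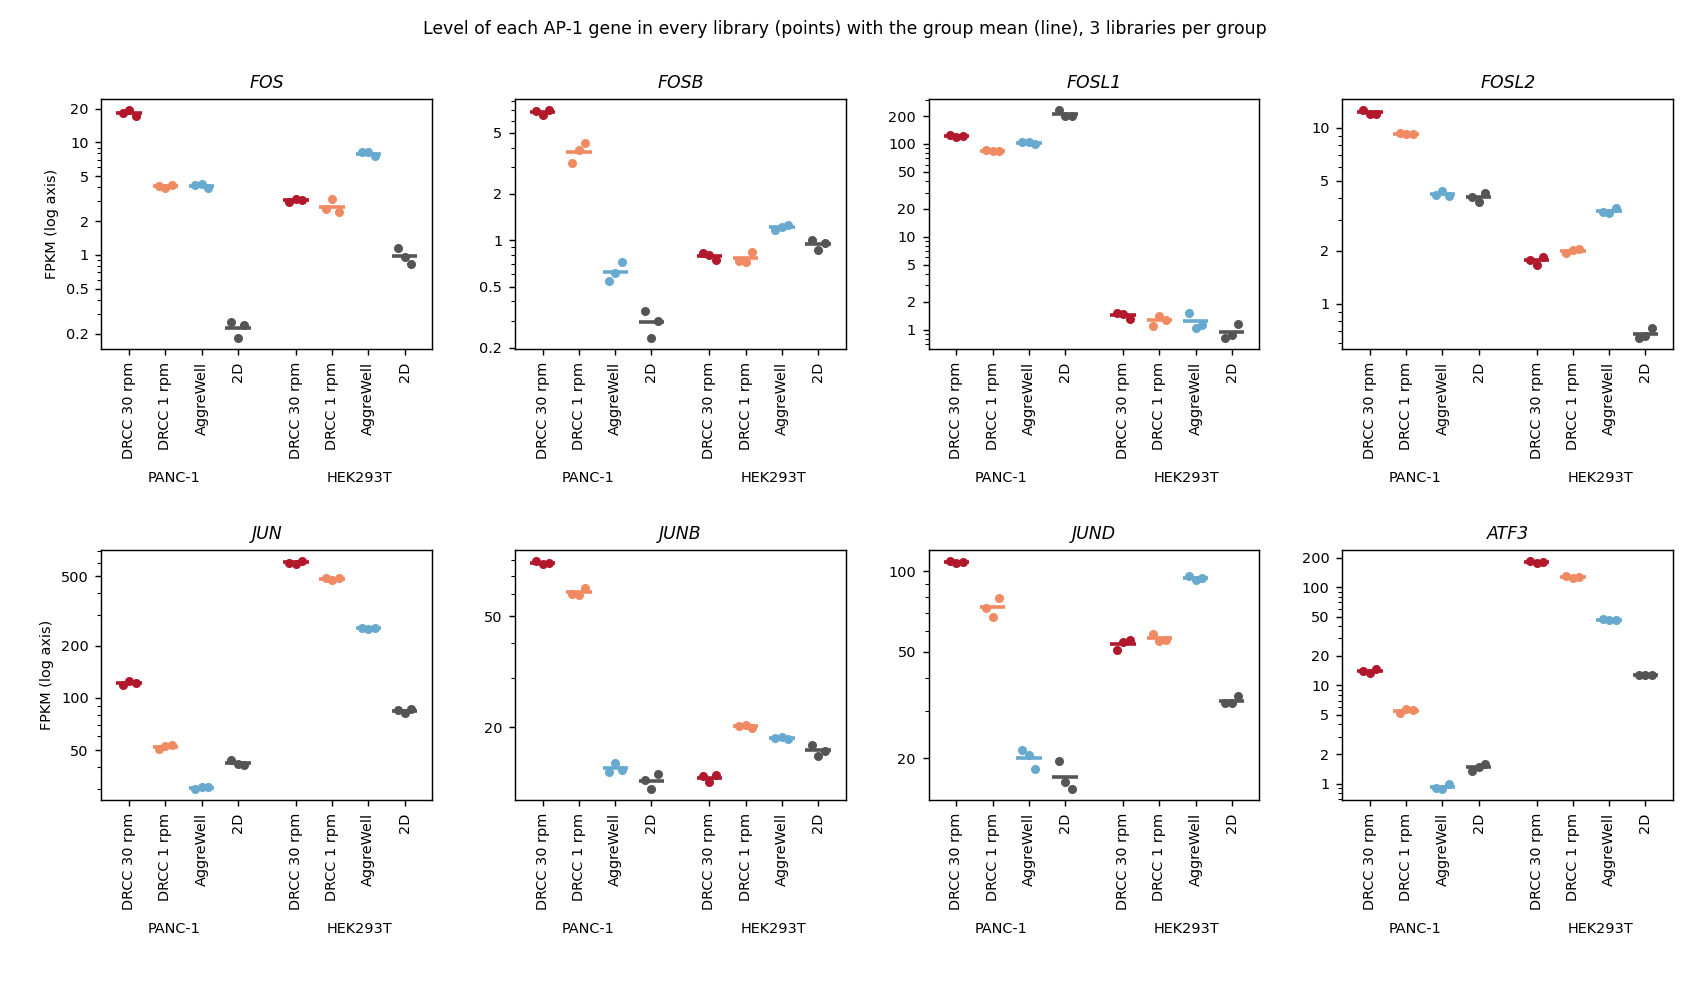
FPKM (log axis) of each of the 8 AP-1 genes in all 24 libraries, PANC-1 on the left and HEK293T on the right of each panel, with points for libraries and lines for group means. All genes but FOSL1 reach their PANC-1 maximum at 30 rpm, FOSL1 has its maximum in PANC-1 2D, and JUN and ATF3 have theirs in HEK293T at 30 rpm.

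FOS encodes c-Fos, an unstable protein whose gene is switched on within minutes of a stimulus in many cells. In PANC-1, FOS stood at 18.1, 19.3 and 17.1 FPKM in the 30 rpm libraries and at 4.14, 3.96 and 4.19 FPKM in the 1 rpm libraries. It stood at 4.18, 4.28 and 3.98 FPKM in AggreWell and at 0.252, 0.183 and 0.237 FPKM in 2D. The 30 rpm libraries were all highest and the 2D libraries all lowest, and the 1 rpm and AggreWell libraries overlapped. Against 2D, FOS rose by 3.97 ± 0.05 at 30 rpm (adjusted p = 3.9e-16), by 2.06 ± 0.05 at 1 rpm (adjusted p = 1.3e-13) and by 2.07 ± 0.05 in AggreWell (adjusted p = 1.4e-12), as log2 change ± SE. The 2D level rested on 15 to 21 fragments per library, and the ratio of mean FPKM was 80.98 at 30 rpm, 18.3 at 1 rpm and 18.5 in AggreWell. FOS passed the filter in PANC-1 through the 3D libraries, where it is high, so having passed it carries no weight for a difference from 2D. A voom fit on recovered fragments, with no pseudocount of 1 FPKM, gave log2 changes of 6.31, 4.17 and 4.18. At 1 rpm FOS did not differ detectably from AggreWell (-0.01, 95% interval -0.12 to 0.09, adjusted p = 0.8), while 30 rpm exceeded AggreWell by 1.90 ± 0.05 (adjusted p = 4e-13).

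In HEK293T the highest FOS levels were in AggreWell instead. FOS had 2.95, 3.14 and 3.08 FPKM at 30 rpm and 2.55, 3.13 and 2.39 FPKM at 1 rpm. It had 8.16, 8.14 and 7.57 FPKM in AggreWell and 1.15, 0.961 and 0.832 FPKM in 2D. No 3D library overlapped with the 2D libraries, and the speeds overlapped with each other. In 2D 1 of 3 libraries reached 1 FPKM, and FOS passed the filter through the 3D libraries, where it is high. Having passed it carries no weight for a difference from 2D. FOS rose against 2D by 1.04 ± 0.07 at 30 rpm (adjusted p = 1.9e-08), by 0.90 ± 0.07 at 1 rpm (adjusted p = 9e-08) and by 2.18 ± 0.07 in AggreWell (adjusted p = 4e-11); voom gave 1.67, 1.47 and 3.03. At 30 rpm it was below AggreWell, with a difference of -1.14 (adjusted p = 1.4e-08). The speeds differed by 0.14 (95% interval -0.02 to 0.30, adjusted p = 0.13), and without 1 rpm replicate 2 by 0.22 (adjusted p = 0.015). Across the 8 groups the order of FOS levels was PANC-1 30 rpm, HEK293T AggreWell, PANC-1 AggreWell and 1 rpm (overlapping), HEK293T 30 rpm and 1 rpm (overlapping), HEK293T 2D and PANC-1 2D.

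FOSB encodes a close relative of c-Fos that is also induced early. In PANC-1, FOSB was at 6.93, 6.55 and 7.02 FPKM at 30 rpm and 3.18, 3.86 and 4.28 FPKM at 1 rpm. It was at 0.540, 0.610 and 0.718 FPKM in AggreWell and 0.348, 0.232 and 0.299 FPKM in 2D, where it rested on 34 to 52 fragments per library. No format overlapped with another, and the rotating libraries were all above 1 FPKM and the others all below it. The change against 2D was 2.60 ± 0.08 at 30 rpm (adjusted p = 9.8e-13), 1.88 ± 0.08 at 1 rpm (adjusted p = 2.5e-11) and 0.33 ± 0.08 in AggreWell (adjusted p = 0.0017). Voom gave 4.55, 3.69 and 1.09. FOSB passed the filter in PANC-1 through the rotating libraries, where it is high, so having passed it carries no weight for a difference between formats.

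HEK293T cells held FOSB near 1 FPKM in every format. Levels were 0.821, 0.800 and 0.749 FPKM at 30 rpm and 0.733, 0.723 and 0.835 FPKM at 1 rpm, against 1.16, 1.23 and 1.26 FPKM in AggreWell and 1.01, 0.861 and 0.961 FPKM in 2D. It passed the filter there only through AggreWell and 1 of the 2D libraries, so having passed it carries no weight for a difference between formats. AggreWell exceeded 2D by 0.19 ± 0.05 (adjusted p = 0.0055), which was 0.11 with median-ratio scaling (adjusted p = 0.079). At 1 rpm it fell by 0.14 (adjusted p = 0.025), a call lost without 1 rpm replicate 1 (-0.13, adjusted p = 0.068) or 2 (-0.12, adjusted p = 0.074) and without 2D replicate 1 (-0.12, adjusted p = 0.097) or 3 (-0.13, adjusted p = 0.066). With mitochondrially encoded genes left out it was -0.06 (adjusted p = 0.27). At 30 rpm the change was -0.12 (adjusted p = 0.052), and -0.15 without 2D replicate 2 (adjusted p = 0.035) and -0.19 with median-ratio scaling (adjusted p = 0.0044).

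FOSL1, which encodes FRA-1, a FOS protein found at high levels in many carcinoma lines, ran against the rest of the family in PANC-1. It had 123, 119 and 123 FPKM at 30 rpm and 85.1, 84.99 and 83.8 FPKM at 1 rpm. It had 105, 105 and 101 FPKM in AggreWell and 231, 199 and 198 FPKM in 2D. Flat culture was highest in all 3 libraries, 1 rpm was lowest, and no formats overlapped. FOSL1 fell by 0.77 on the log2 scale at 30 rpm (adjusted p = 1.7e-09), by 1.29 at 1 rpm (adjusted p = 7.8e-12) and by 1.00 in AggreWell (adjusted p = 6.2e-10), with an SE of 0.05 each. It was higher at 30 rpm than in AggreWell by 0.23 ± 0.05 (adjusted p = 0.00045), which became 0.10 (adjusted p = 0.083) with mitochondrially encoded genes left out.

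In HEK293T, FOSL1 was close to 1 FPKM throughout, with 1.52, 1.49 and 1.30 FPKM at 30 rpm and 1.08, 1.41 and 1.28 FPKM at 1 rpm. AggreWell had 1.53, 1.05 and 1.11 FPKM and 2D had 0.816, 0.873 and 1.15 FPKM. Neighbouring formats overlapped, and only the 30 rpm libraries were all above the 2D ones. In 2D it rested on 54 to 77 fragments per library, and 1 of 3 libraries reached 1 FPKM. FOSL1 passed the filter there through the 3D libraries, so having passed it carries no weight for a difference from 2D. The rise at 30 rpm was 0.33 ± 0.09 (adjusted p = 0.0044), and in AggreWell the difference was 0.19 (95% interval 0.00 to 0.39, adjusted p = 0.068). At 1 rpm it was 0.22 (adjusted p = 0.039), and without any 1 of 4 libraries it missed the threshold: 0.17 and 0.21 without 1 rpm replicates 2 and 3, and 0.17 and 0.19 without 2D replicates 1 and 2. Same-numbered libraries of this comparison deviated together, and with the replicate number as a block it was 0.22 (adjusted p = 0.056). With median-ratio scaling it was 0.11 (adjusted p = 0.29). The AggreWell call was gained without 2D replicate 3 (0.27) or AggreWell replicate 2 (0.25), and with mitochondrially encoded genes left out (0.26). At 30 rpm against AggreWell the difference was 0.13 (adjusted p = 0.19), and 0.23 without AggreWell replicate 1 (adjusted p = 0.031). In 2D, FOSL1 averaged 209 ± 18.9 FPKM in PANC-1 and 0.945 ± 0.177 FPKM in HEK293T (SD, n = 3 each), a 221-fold ratio and the largest gap between the lines among the 8 genes.

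FOSL2 encodes FRA-2, a FOS protein whose mRNA appears later after a stimulus. PANC-1 libraries had 12.5, 11.98 and 12.01 FPKM at 30 rpm and 9.33, 9.19 and 9.24 FPKM at 1 rpm, against 4.13, 4.35 and 4.12 FPKM in AggreWell and 4.02, 3.79 and 4.24 FPKM in 2D. The rotating libraries lay above all others, and AggreWell overlapped with 2D. FOSL2 rose against 2D by 1.39 ± 0.04 at 30 rpm (adjusted p = 7.3e-13) and by 1.03 ± 0.04 at 1 rpm (adjusted p = 1.4e-11); the AggreWell difference was 0.05 (95% interval -0.03 to 0.14, adjusted p = 0.25), and 0.13 with mitochondrially encoded genes left out (adjusted p = 0.0091). In HEK293T it had 1.78, 1.66 and 1.85 FPKM at 30 rpm and 1.95, 2.02 and 2.05 FPKM at 1 rpm, against 3.33, 3.28 and 3.51 FPKM in AggreWell and 0.641, 0.659 and 0.730 FPKM in 2D. Here AggreWell was highest and no formats overlapped. FOSL2 was below 1 FPKM in every HEK293T 2D library and passed the filter there through the 3D libraries, where it is high. Having passed it carries no weight for a difference from 2D. The rises were 0.72 ± 0.05, 0.84 ± 0.05 and 1.38 ± 0.05 at 30 rpm, at 1 rpm and in AggreWell (highest adjusted p = 7.6e-09), and voom gave 1.40, 1.58 and 2.32. The HEK293T difference between speeds, -0.12 (adjusted p = 0.048), missed the threshold without any 1 of the 3 libraries at 1 rpm (-0.13, -0.12 and -0.11) or without replicate 1 or 2 at 30 rpm (-0.12 and -0.09).

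JUN encodes c-Jun, the main target of the JNK kinases among AP-1 proteins, and had the highest level of the 8 genes in every HEK293T format. HEK293T libraries had 599.7, 592 and 611 FPKM at 30 rpm and 486, 475 and 486 FPKM at 1 rpm. AggreWell libraries had 253, 248 and 254 FPKM and 2D libraries 84.7, 81.9 and 86.6 FPKM. The formats formed a clear order, with 30 rpm highest, then 1 rpm, AggreWell and 2D, and no overlap. JUN rose by 2.82 ± 0.02 at 30 rpm (adjusted p = 5.4e-17), by 2.50 ± 0.02 at 1 rpm (adjusted p = 3e-16) and by 1.56 ± 0.02 in AggreWell (adjusted p = 6.7e-14). The speeds themselves differed by 0.32 ± 0.02 (adjusted p = 5.4e-07).

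PANC-1 held less JUN, and AggreWell had the least. The 30 rpm libraries had 119, 125 and 122 FPKM and the 1 rpm libraries 50.7, 52.99 and 53.8 FPKM. AggreWell had 29.97, 30.8 and 30.6 FPKM and 2D 43.9, 41.8 and 40.9 FPKM. No formats overlapped, and 30 rpm was far above the other formats. Against 2D, JUN rose by 1.51 ± 0.03 at 30 rpm (adjusted p = 4.5e-14) and by 0.31 ± 0.03 at 1 rpm (adjusted p = 5.8e-07; 0.13 with median-ratio scaling, adjusted p = 0.0048). It fell by 0.46 in AggreWell (adjusted p = 3.2e-08), and 30 rpm exceeded 1 rpm by 1.20 ± 0.03 (adjusted p = 7.4e-12).

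JUNB encodes a JUN protein that activates many AP-1 sites less strongly than c-Jun. PANC-1 had 78.95, 76.8 and 77.6 FPKM at 30 rpm and 60.3, 59.7 and 63.1 FPKM at 1 rpm, against 13.7, 14.9 and 14.1 FPKM in AggreWell and 12.9, 11.997 and 13.6 FPKM in 2D. All rotating libraries were far above AggreWell and 2D, which did not overlap but lay close together. JUNB rose by 2.51 ± 0.04 at 30 rpm (adjusted p = 3.9e-15), by 2.17 ± 0.04 at 1 rpm (adjusted p = 1.8e-14) and by 0.14 ± 0.04 in AggreWell (adjusted p = 0.0078), the last being 0.01 with median-ratio scaling (adjusted p = 0.8). In HEK293T, JUNB had 13.3, 12.7 and 13.5 FPKM at 30 rpm and 20.2, 20.3 and 19.9 FPKM at 1 rpm, against 18.2, 18.4 and 18.1 FPKM in AggreWell and 17.2, 15.8 and 16.5 FPKM in 2D. There 30 rpm was lowest and 1 rpm highest, without overlap. It fell by 0.30 at 30 rpm (adjusted p = 2.3e-06) and rose by 0.27 ± 0.03 at 1 rpm (adjusted p = 6.4e-06) and by 0.14 ± 0.03 in AggreWell (adjusted p = 0.0024). With median-ratio scaling the last pair of values was 0.07 and -0.01 (adjusted p = 0.087 and 0.83), the second with its sign turned. With mitochondrially encoded genes left out they were 0.43 and 0.27 (adjusted p = 3.5e-08 and 6.8e-06), and the change at 30 rpm was -0.14 (adjusted p = 0.0016). JUNB at 1 rpm against AggreWell likewise gave 0.13 (adjusted p = 0.0035) and, with that scaling, 0.08 (adjusted p = 0.062).

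JUND encodes the most broadly expressed JUN protein, whose level usually changes little when growth signals do. In PANC-1 it had 109, 107 and 108 FPKM at 30 rpm and 72.9, 67.8 and 79.5 FPKM at 1 rpm, against 21.5, 20.6 and 18.2 FPKM in AggreWell and 19.5, 16.3 and 15.3 FPKM in 2D. The rotating libraries were again far above the rest, and AggreWell overlapped with 2D. JUND rose by 2.61 ± 0.08 at 30 rpm (adjusted p = 1.4e-12) and by 2.05 ± 0.08 at 1 rpm (adjusted p = 1.4e-11). The AggreWell rise of 0.23 (adjusted p = 0.019) missed the threshold without AggreWell replicate 1 (0.18) or 2 (0.21), without 2D replicate 2 (0.20) or 3 (0.16), and with median-ratio scaling (0.10, adjusted p = 0.33). HEK293T libraries had 50.6, 54.6 and 55.5 FPKM at 30 rpm and 58.5, 54.9 and 55.2 FPKM at 1 rpm, against 96.2, 92.6 and 94.8 FPKM in AggreWell and 32.2, 32.03 and 34.2 FPKM in 2D. AggreWell was highest, the speeds overlapped, and 2D was lowest. JUND rose there by 0.69 ± 0.04, 0.76 ± 0.04 and 1.50 ± 0.04 at 30 rpm, at 1 rpm and in AggreWell (highest adjusted p = 1.7e-09), and the speeds differed by -0.07 (95% interval -0.15 to 0.02, adjusted p = 0.17).

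ATF3 is induced by amino acid shortage, endoplasmic reticulum stress and DNA damage and can act as a repressor when paired with itself. HEK293T libraries had 184, 175 and 179 FPKM at 30 rpm and 129, 125 and 128 FPKM at 1 rpm. They had 47.2, 46.3 and 46.6 FPKM in AggreWell and 12.8, 12.7 and 12.6 FPKM in 2D. The formats stood in the same order as for JUN, with no overlap. ATF3 rose by 3.72 ± 0.02 at 30 rpm (adjusted p = 1.6e-17), by 3.23 ± 0.02 at 1 rpm (adjusted p = 4.5e-17) and by 1.80 ± 0.02 in AggreWell (adjusted p = 3.2e-14), the largest change in HEK293T at each speed. In PANC-1 it had 13.9, 13.5 and 14.7 FPKM at 30 rpm and 5.22, 5.69 and 5.63 FPKM at 1 rpm, against 0.894, 0.883 and 1.0003 FPKM in AggreWell and 1.36, 1.48 and 1.58 FPKM in 2D. Again 30 rpm was highest and no formats overlapped, but AggreWell was below 2D. The PANC-1 changes were 2.61 ± 0.05 at 30 rpm (adjusted p = 1.9e-14), 1.40 ± 0.05 at 1 rpm (adjusted p = 7.5e-12) and -0.36 ± 0.05 in AggreWell (adjusted p = 2.6e-05; voom -0.66). ATF4, the factor known to induce ATF3 when amino acids run short, averaged 90.5 ± 0.846 FPKM at 30 rpm and 36.1 ± 0.660 FPKM in 2D in PANC-1 (log2 change 1.30 ± 0.03, adjusted p = 1.2e-13). At 1 rpm and in AggreWell its PANC-1 changes were 0.94 ± 0.03 and -0.62 ± 0.03 (adjusted p = 2.8e-12 and 1.2e-09). In HEK293T the ATF4 changes were 0.64 ± 0.03 at 30 rpm, 0.15 ± 0.03 at 1 rpm and -0.60 ± 0.03 in AggreWell (adjusted p = 4.1e-11, 7.7e-05 and 2.4e-10).

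Over all 8 groups, JUN and ATF3 had the same order of levels: HEK293T 30 rpm, 1 rpm and AggreWell, then PANC-1 30 rpm, HEK293T 2D, and PANC-1 1 rpm, 2D and AggreWell, with no neighbours overlapping. FOSB followed PANC-1 30 rpm, PANC-1 1 rpm, HEK293T AggreWell, HEK293T 2D, HEK293T 30 rpm and 1 rpm (overlapping), PANC-1 AggreWell and PANC-1 2D. JUNB was highest in PANC-1 30 rpm and 1 rpm, followed by HEK293T 1 rpm, AggreWell and 2D, PANC-1 AggreWell, and HEK293T 30 rpm and PANC-1 2D (overlapping). JUND was led by PANC-1 30 rpm, HEK293T AggreWell and PANC-1 1 rpm, then HEK293T 1 rpm and 30 rpm (overlapping), HEK293T 2D, and PANC-1 AggreWell and 2D (overlapping). FOSL2 was higher in every PANC-1 format than in any HEK293T format, and so was FOSL1.

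**Figure D2:**
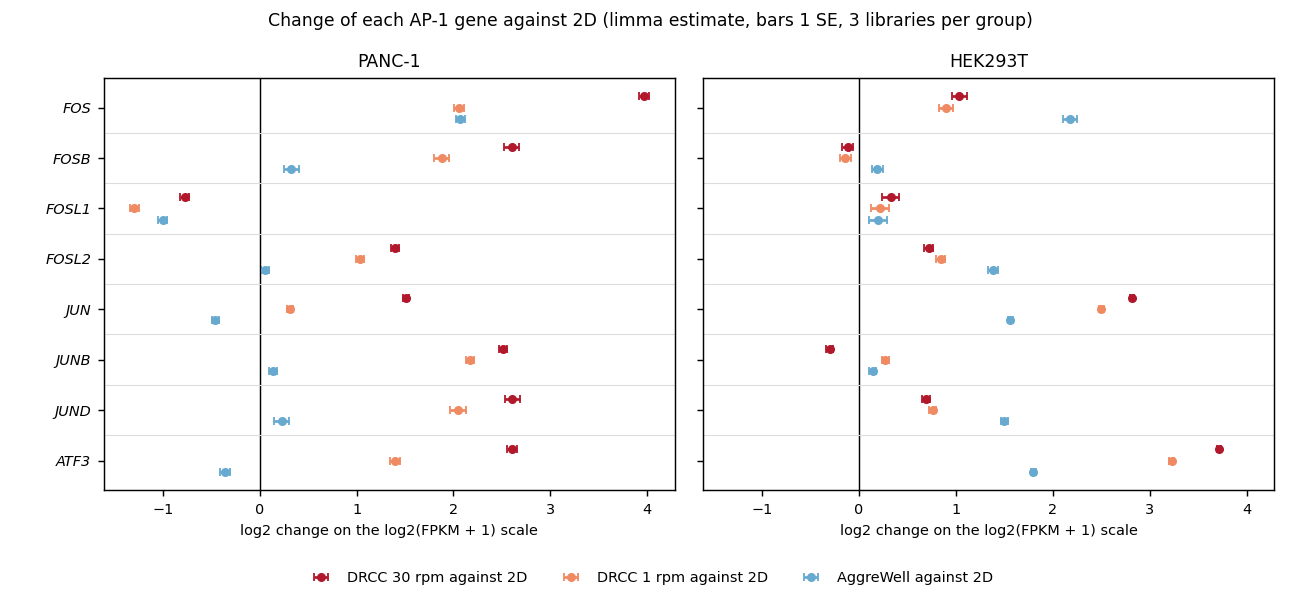
Log2 change of each AP-1 gene against 2D on the log2(FPKM + 1) scale, with bars of 1 SE, for PANC-1 (left) and HEK293T (right), 3 libraries per group. In PANC-1 the points for 30 rpm lie right of those for 1 rpm for every gene, and in HEK293T the AggreWell points lie furthest right for FOS, FOSB, FOSL2 and JUND.

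Whether the lines differed in their response was tested as the PANC-1 change minus the HEK293T change. At 30 rpm the PANC-1 change lay above the HEK293T change for 5 genes, FOS (2.93), FOSB (2.72), JUNB (2.82), JUND (1.91) and FOSL2 (0.67), and below it for FOSL1 (-1.10), JUN (-1.31) and ATF3 (-1.11). These 5 and 3 calls stand beside 42% and 37.5% of 13392 genes, and 4 and 3 of them passed 2-fold, beside 8.06% and 7.41%. With mitochondrially encoded genes left out, 41.1% of called genes had a PANC-1 change above that of HEK293T, against 52.8% as deposited, and no AP-1 gene changed its call. At 1 rpm the same genes fell on the same sides, 5 and 3, beside 35.8% and 40%, with 4 and 3 past 2-fold, beside 4.37% and 6.48%. The highest adjusted p over both speeds was 0.0035, for FOSL2 at 1 rpm. With voom the FOSL2 difference at 30 rpm was 0.20 (adjusted p = 0.082), the ATF3 difference -0.58, and the FOS difference 4.64.

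In AggreWell the difference ran one way: FOSL1, FOSL2, JUN, JUND and ATF3 had PANC-1 changes below those of HEK293T, with differences of -1.20 to -2.16, all past 2-fold. These 5 lower and 0 higher calls stand beside 32% and 25% of genes, and beside 1.53% past 2-fold downward. JUN fell in PANC-1 AggreWell and rose in HEK293T AggreWell, and so did ATF3, with differences of -2.02 ± 0.04 (adjusted p = 5e-19) and -2.16 ± 0.05 (adjusted p = 8.9e-18). FOS, FOSB and JUNB gave -0.11 (95% interval -0.30 to 0.08, adjusted p = 0.32), 0.14 (-0.05 to 0.32, adjusted p = 0.2) and 0.00 (-0.11 to 0.11, adjusted p = 1). For the low genes the answer depends on the scale: with a pseudocount of 0.1 the FOS difference was 0.81 (adjusted p = 7e-05) and the FOSB difference 0.55 (adjusted p = 0.0068), so 2 genes were then higher by calls. At 1 rpm the FOSL2 difference of 0.19 turned to -0.25 with that pseudocount and to -0.38 with voom.

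**Figure D3:**
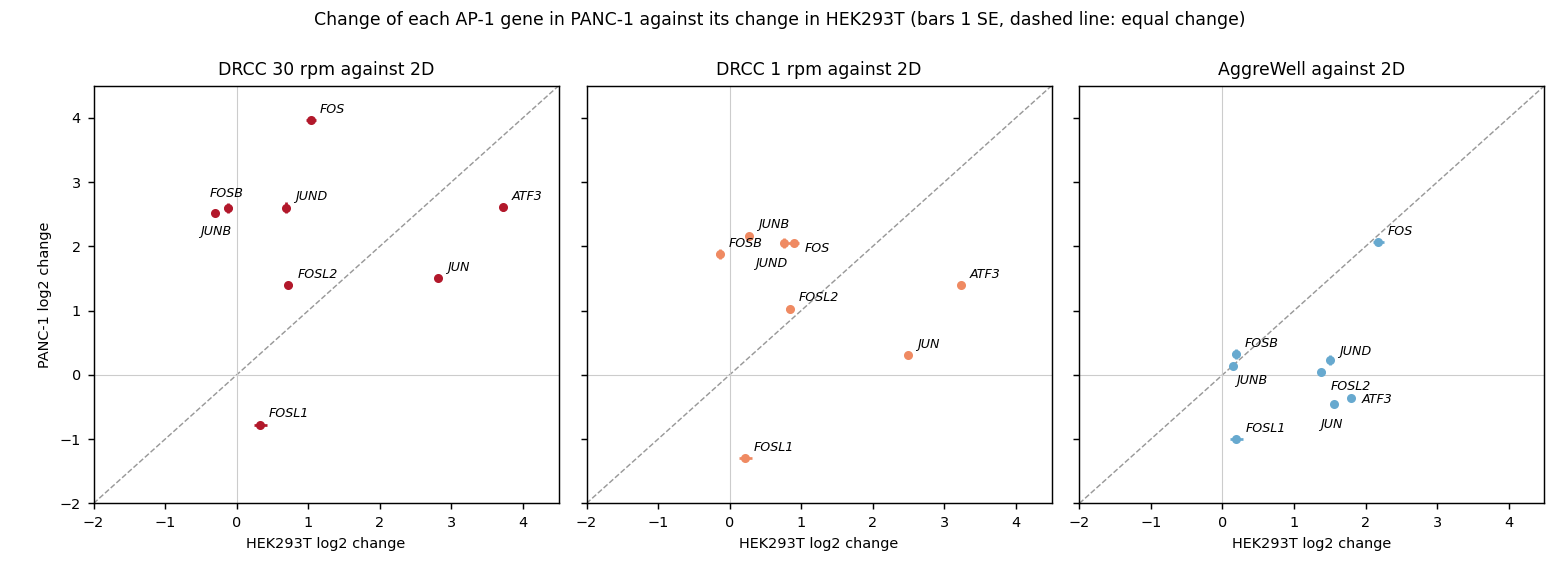
PANC-1 log2 change (vertical) against HEK293T log2 change (horizontal) of each AP-1 gene for DRCC 30 rpm, DRCC 1 rpm and AggreWell against 2D, with bars of 1 SE and a dashed line of equal change. FOS, FOSB, JUNB and JUND lie above the line at both speeds, JUN, ATF3 and FOSL1 lie below it in all 3 panels, and FOS, FOSB and JUNB lie close to it in AggreWell.

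In 2D itself, PANC-1 had more FOSL1 and FOSL2 than HEK293T and less of the other 6 genes, beside 34.7% of 13392 genes higher and 56.1% lower. FOSL1 and FOSL2 were past 2-fold (6.76 and 1.58), beside 12.2%, and ATF3 was past 2-fold lower (-2.47), beside 21.9%. ATF3 averaged 1.47 ± 0.109 FPKM in PANC-1 and 12.7 ± 0.0607 FPKM in HEK293T, and JUN 42.2 ± 1.54 FPKM in PANC-1 and 84.4 ± 2.39 FPKM in HEK293T (SD, n = 3 each). The JUNB difference of -0.34 (adjusted p = 3e-08) was -0.03 with median-ratio scaling (adjusted p = 0.53). Among all called genes 49.2% were then higher in PANC-1, against 38.2% as deposited. For the low genes FOS and FOSB the differences of -0.69 and -0.59 were -2.10 and -1.69 with voom. Each line stands for 1 cell line, so tissue of origin and line cannot be told apart.

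In PANC-1 the makeup of the AP-1 mRNA pool shifted from FOS-family to JUN-family genes, most in the rotating formats and less in AggreWell. The FOS family supplied 33.01% ± 0.367 of the summed FPKM of the 8 genes at 30 rpm, 34.6% ± 1.03 at 1 rpm, 63.2% ± 0.129 in AggreWell and 74.4% ± 0.738 in 2D (SD, n = 3 each). The JUN family supplied 64.1% ± 0.403 at 30 rpm, 63.5% ± 1.07 at 1 rpm, 36.3% ± 0.150 in AggreWell and 25.1% ± 0.666 in 2D. Its summed level was 308 ± 1.21 FPKM at 30 rpm and 187 ± 8.40 FPKM at 1 rpm. In AggreWell it was 64.8 ± 1.75 FPKM, against 72.1 ± 3.64 FPKM in 2D. The JUN-family level thus rose in the rotating formats and was lower in AggreWell, where only its share rose. FOSL1 alone made up most of the FOS share in every PANC-1 format and carried its fall, from 72.8% of the pool in 2D to 25.3% at 30 rpm. FOS, FOSB and FOSL2 gained share, with 3.78%, 1.42% and 2.53% at 30 rpm, against 0.0779%, 0.102% and 1.40% in 2D. The rotating libraries did not overlap with the others in either share, and these shares are within a library, so scaling leaves them as they are. The summed level was 481 ± 1.28 FPKM at 30 rpm, 294 ± 8.23 FPKM at 1 rpm, 178 ± 4.31 FPKM in AggreWell and 287 ± 22.5 FPKM in 2D, with 1 rpm overlapping with 2D.

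In HEK293T the FOS family was a small part of the pool, at 0.826% ± 0.0189 at 30 rpm, 0.971% ± 0.0850 at 1 rpm, 3.25% ± 0.0805 in AggreWell and 2.36% ± 0.0555 in 2D. JUN genes supplied 78.2% ± 0.466, 80.6% ± 0.0142, 85.8% ± 0.148 and 89.2% ± 0.199 in the same formats. ATF3 took a larger share in 3D, with 20.99% ± 0.462 at 30 rpm, 18.4% ± 0.0740 at 1 rpm and 11.003% ± 0.0723 in AggreWell, against 8.48% ± 0.239 in 2D. The summed level was 854 ± 12.5 FPKM at 30 rpm, 693 ± 8.88 FPKM at 1 rpm, 425 ± 5.15 FPKM in AggreWell and 149.9 ± 3.92 FPKM in 2D, with no overlap.

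**Figure D4:**
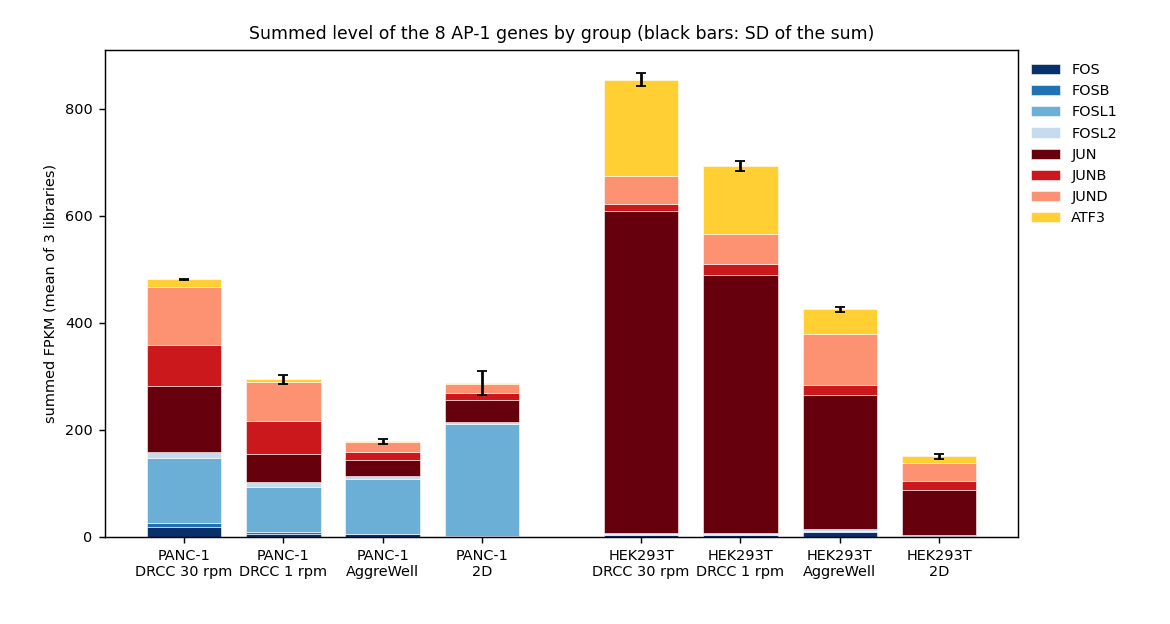
Mean summed FPKM of the 8 AP-1 genes in each group, stacked by gene, with black bars for the SD of the sum over 3 libraries. FOSL1 fills most of the PANC-1 2D bar, JUN genes fill most of the PANC-1 30 rpm bar, and JUN is the largest piece of every HEK293T bar.

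Among 14 other bZIP genes that pair with AP-1 proteins or resemble them, 8 were tested in PANC-1, with 7 higher and 1 lower at 30 rpm, 6 and 2 at 1 rpm, and 2 and 6 in AggreWell. Of all genes tested, 53.6% and 32.2%, 52.3% and 33.9%, and 45.9% and 24.1% were higher and lower in these comparisons. The median changes of the 8 were 1.02, 0.91 and -0.28, beside 0.17, 0.15 and 0.10 for all genes. MAFF and MAFK encode small MAF proteins, which lack an activation domain. MAFF averaged 27.7 ± 0.119 FPKM at 30 rpm and 3.23 ± 0.202 FPKM in 2D in PANC-1 (log2 change 2.76 ± 0.04, adjusted p = 3.1e-15), and MAFK 131 ± 1.13 FPKM at 30 rpm and 44.6 ± 2.18 FPKM in 2D (log2 change 1.54 ± 0.04, adjusted p = 1e-13). ATF5, a relative of ATF4, was the gene that fell at 30 rpm, at 18.8 ± 0.502 FPKM against 47.5 ± 3.24 FPKM in 2D (log2 change -1.29 ± 0.04, adjusted p = 5.2e-12). In HEK293T 10 were tested, with 8 higher and 2 lower at 30 rpm, 8 and 2 at 1 rpm and 6 and 3 in AggreWell, and medians of 0.69, 0.71 and 0.18. In HEK293T 49.6% and 35.5%, 53.1% and 31.7%, and 48.6% and 26.8% of all genes were higher and lower, with medians of 0.13, 0.18 and 0.12. There ATF2, which pairs with c-Jun on CRE sites, averaged 16.95 ± 0.571 FPKM at 30 rpm and 5.06 ± 0.593 FPKM in 2D (log2 change 1.57 ± 0.07, adjusted p = 2.2e-10), MAFF rose by 1.64 ± 0.06 (adjusted p = 9.5e-12), MAFG by 1.01 ± 0.04 and MAFK by 0.88 ± 0.04.

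Most genes known to limit AP-1 were higher in the rotating formats of both lines and in HEK293T AggreWell, but not in PANC-1 AggreWell. Of 17 such genes, all tested in PANC-1, there were 14 higher and 1 lower at 30 rpm, 13 and 2 at 1 rpm, and 5 and 5 in AggreWell, with medians of 0.78, 0.75 and 0.01, beside the shares and medians of all PANC-1 genes just given. Of the 17, 7 rose by at least 2-fold at 30 rpm, 7 at 1 rpm and 0 in AggreWell, beside 10.9%, 10.5% and 1.22% of all genes. ZFP36, whose protein marks AU-rich mRNAs such as that of FOS for decay, averaged 2160.2 ± 7.73 FPKM at 30 rpm and 115 ± 12.5 FPKM in 2D (log2 change 4.23 ± 0.05, adjusted p = 5.5e-16). DUSP1, a phosphatase that switches off MAP kinases, averaged 343 ± 8.63 FPKM at 30 rpm and 37.3 ± 0.818 FPKM in 2D (log2 change 3.17 ± 0.03, adjusted p = 4e-17), and DUSP5 and ZFP36L1 rose by 1.72 ± 0.04 and 1.23 ± 0.06. In HEK293T 14 were tested, with 12 higher and 1 lower at 30 rpm, 13 and 0 at 1 rpm, and 11 and 0 in AggreWell. All HEK293T genes had 49.6% and 35.5%, 53.1% and 31.7%, and 48.6% and 26.8% higher and lower. The medians of the 14 were 0.66, 0.60 and 0.36, beside 0.13, 0.18 and 0.12 for all genes. Of the 14, 3 rose by at least 2-fold at 30 rpm, 1 at 1 rpm and 0 in AggreWell. These stand beside 11.6%, 12.2% and 5.43% of all genes. DUSP1 averaged 65.8 ± 1.69 FPKM at 30 rpm and 13.6 ± 0.567 FPKM in 2D there (log2 change 2.20 ± 0.04, adjusted p = 1.7e-14). TRIB1, a pseudokinase that steers proteins to degradation, averaged 24.5 ± 1.41 FPKM and 10.3 ± 0.637 FPKM (log2 change 1.17 ± 0.05, adjusted p = 7.8e-11), and ZFP36L1 and DUSP5 rose by 1.07 ± 0.04 and 0.83 ± 0.09. Median-ratio scaling left 11 higher and 3 lower in PANC-1 at 30 rpm and 12 and 2 in HEK293T at 30 rpm. All genes then had 5005 higher and 4929 lower of 11585 in PANC-1, and 5312 and 5349 of 12548 in HEK293T.

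Known AP-1 target genes moved in both directions, at 30 rpm in shares near those of all genes. Of 30 targets 20 were tested in PANC-1, with 12 higher and 6 lower at 30 rpm, 5 and 12 at 1 rpm, and 1 and 14 in AggreWell, and medians of 0.32, -0.19 and -0.24. All PANC-1 genes had 53.6% and 32.2%, 52.3% and 33.9%, and 45.9% and 24.1% higher and lower. MMP1, a collagenase gene with a well-known TPA response element, fell to 2.79 ± 0.0114 FPKM at 30 rpm, against 19.4 ± 0.0336 FPKM in 2D (log2 change -2.43 ± 0.04, adjusted p = 1.6e-15). CCND1, which encodes cyclin D1, averaged 59.7 ± 0.837 FPKM at 30 rpm and 158 ± 4.42 FPKM in 2D (log2 change -1.39 ± 0.03, adjusted p = 1.1e-14). The cytokine gene LIF averaged 48.1 ± 1.50 FPKM at 30 rpm and 19.01 ± 0.526 FPKM in 2D (log2 change 1.30 ± 0.03, adjusted p = 2.2e-13), and SPHK1, a sphingosine kinase, rose by 0.90 ± 0.08. In HEK293T 15 were tested, with 7 higher and 4 lower at 30 rpm, 11 and 3 at 1 rpm, and 9 and 5 in AggreWell, and medians of 0.11, 0.37 and 0.17. All HEK293T genes had 49.6% and 35.5%, 53.1% and 31.7%, and 48.6% and 26.8% higher and lower. FSCN1, which encodes the actin bundler fascin, averaged 72.8 ± 2.46 FPKM at 30 rpm and 145 ± 3.42 FPKM in 2D (log2 change -0.98 ± 0.04, adjusted p = 1.9e-11), CCND1 and EZR changed by -0.90 ± 0.03 and -0.63 ± 0.03, and VEGFA rose by 0.71 ± 0.03 (adjusted p = 1.5e-10). With median-ratio scaling the PANC-1 counts were 10 higher and 7 lower at 30 rpm, 2 and 16 at 1 rpm, and 1 and 19 in AggreWell, and the HEK293T counts at 30 rpm were 5 and 7. All 11585 PANC-1 genes then had 5005 higher and 4929 lower, 4936 and 4942, and 3837 and 4301 in the same formats. All 12548 HEK293T genes had 5312 and 5349 at 30 rpm.

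The mRNAs of kinases and transcription factors that act upstream of AP-1 were, as deposited, higher and lower in shares near those of all genes. Of 24, 23 were tested in PANC-1, with 11 higher and 9 lower at 30 rpm, 10 and 8 at 1 rpm, and 10 and 8 in AggreWell, with medians of 0.09, 0.00 and 0.02. These stand beside 53.6% and 32.2%, 52.3% and 33.9%, and 45.9% and 24.1% of all genes higher and lower, and 0 were past 2-fold in these 3 comparisons, beside 10.9% higher and 3.26% lower at 30 rpm. In PANC-1 at 30 rpm MRTFA, an actin-controlled partner of serum response factor, changed by -0.94 ± 0.04 and MAPK3, which encodes ERK1, by 0.74 ± 0.05. ELK4, a ternary complex factor on the FOS promoter, rose by 0.64 ± 0.04, and MAPK9, which encodes JNK2, changed by -0.60 ± 0.04. In HEK293T all 24 were tested, with 11 higher and 8 lower at 30 rpm, 12 and 4 at 1 rpm, and 13 and 6 in AggreWell, beside 49.6% and 35.5%, 53.1% and 31.7%, and 48.6% and 26.8% of all genes higher and lower, and medians of 0.09, 0.11 and 0.15. Of the 24, 1 rose by at least 2-fold at 30 rpm, 2 at 1 rpm and 0 in AggreWell. These stand beside 11.6%, 12.2% and 5.43% of all genes. The gene past 2-fold at 30 rpm was ELK4, at 10.4 ± 0.417 FPKM against 1.64 ± 0.238 FPKM in 2D (log2 change 2.11 ± 0.07, adjusted p = 1.1e-11). MAP2K3, RPS6KA3 and ELK1 changed at 30 rpm by -0.92 ± 0.04, 0.71 ± 0.06 and -0.68 ± 0.04. With median-ratio scaling the counts turned to 8 higher and 14 lower at 30 rpm in PANC-1 and to 8 and 11 at 30 rpm in HEK293T. Of all genes, 5005 were then higher and 4929 lower of 11585 in PANC-1, and 5312 and 5349 of 12548 in HEK293T. Under that scaling the PANC-1 list leaned lower, while all genes were near balance. Of the 416 refits of the genes named from the lists under the alternatives, 416 kept direction and call.

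**Figure D5:**
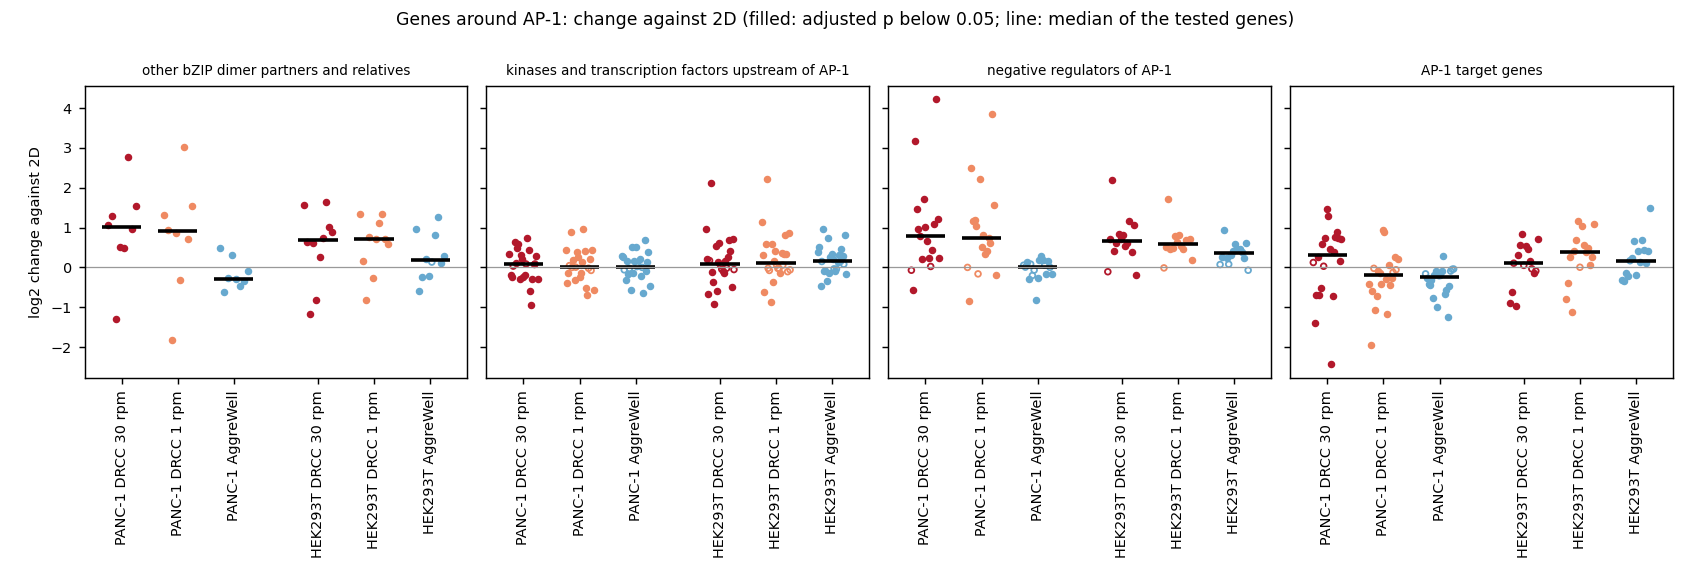
Log2 change against 2D of each tested gene of 4 lists around AP-1, by line and format, filled where the limma adjusted p was below 0.05, with black lines for the median of each list. Negative regulators and bZIP partners lie mostly above 0 in the rotating formats of both lines, target genes spread to both sides, and upstream kinases and factors lie around 0.

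The genes whose pattern was most like that of each AP-1 gene were sought among 9800 genes by Pearson's r over the 8 group means of log2(FPKM + 1), each centred on its line's mean. With 8 points that share libraries and depth, these values describe the groups only. For FOS they were CPSF1 (0.993), KIAA0895L (0.978), SH3D21 (0.967), and for FOSB CLCN2 (0.994), XYLT2 (0.993), KMT5C (0.991). FOSL1 was most like GBX2 (0.988), SLC35F3 (0.972), CDCP1 (0.967), and FOSL2 most like KRBA1 (0.982), COL6A2 (0.982), BHLHE40 (0.975). JUN was closest to KLF10 (0.980), GADD45A (0.980), ANAPC10 (0.974); KLF10 encodes a zinc finger factor and GADD45A a growth arrest protein. JUNB was closest to NRTN (0.992), IRGQ (0.991), TSPAN9 (0.990), and JUND to SLC2A3 (0.989), CRELD1 (0.988), RIPOR1 (0.984), of which SLC2A3 encodes the glucose transporter GLUT3. The nearest genes to ATF3 were GEM (0.987), NUMBL (0.982), RRAS (0.981); GEM and RRAS encode small GTPases. Between AP-1 genes the highest values were 0.979 for JUN with ATF3, 0.970 for FOSB with JUNB and 0.968 for FOSL2 with JUND. FOSL1 had negative values with 6 of the other genes, the lowest being -0.532 with JUNB, and 0.166 with JUN.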

How the data were processed

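RNA-seq libraries of PANC-1 and HEK293T cells in 4 culture formats were analysed (24 libraries, 3 per group). The authors deposited 1 table of FPKM values per gene. The submitters' processing notes name fastp, HISAT2, HTSeq and R 3.2.0, and a build, mm10, although the table's symbols are human; the alignment itself could not be checked. The sources used here do not say whether counting was stranded. Whole fragments were recovered from the steps of the deposited FPKM values for 26449 of 26450 genes (tolerance 0.01 fragments); library totals of 32021638 to 39556154 come from them.

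Genes that reached 1 FPKM in 3 or more libraries were tested with limma 3.58.1 (trend, R 4.3.3) on log2(FPKM + 1), with 12 libraries per line, or 24 for comparisons between lines, and Benjamini-Hochberg adjustment over all genes tested. A call is an adjusted p below 0.05. Comparisons against 2D share the 2D libraries of their line. The fit was tested on simulated data. Tables were prepared with Python 3.11.15. The 8 genes, the lists and the tests were chosen with earlier results of these data known. All 8 genes are named; from each list the 4 genes with the largest called change at 30 rpm in each line are named, if their mean reached 5 FPKM. Alternatives were a pseudocount of 0.1, no filter, median-ratio scaling, mitochondrially encoded genes left out, voom on recovered fragments, separate fits, a replicate block, and leaving out each library. Those for the lists were added after seeing the data. The main tests paired no libraries, and the replicate number entered only in the alternative with a block. Deviations of same-numbered libraries from the group means correlated above 0.1 in every pair only for HEK293T DRCC 1 rpm with 2D (0.137 to 0.412 in 3 pairs). The labels do not say what a number stands for. Sequences are from RefSeq (GRCh38.p14).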

Additional observations from a re-analysis of the deposited data

Results flagged for a closer look

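The responses of the lines differed by a test of the difference itself, the PANC-1 change minus the HEK293T change against 2D on the log2(FPKM + 1) scale (limma, 24 libraries, adjusted p below the threshold). At DRCC 30 rpm the difference was 2.93 for FOS, 2.72 for FOSB, -1.10 for FOSL1, 0.67 for FOSL2, -1.31 for JUN, 2.82 for JUNB, 1.91 for JUND and -1.11 for ATF3. At DRCC 1 rpm it was 1.16 for FOS, 2.02 for FOSB, -1.51 for FOSL1, 0.19 for FOSL2, -2.19 for JUN, 1.89 for JUNB, 1.29 for JUND and -1.83 for ATF3. In AggreWell it was -1.20 for FOSL1, -1.33 for FOSL2, -2.02 for JUN, -1.27 for JUND and -2.16 for ATF3. FOSL2 at 1 rpm turned its sign with a pseudocount of 0.1 and with voom. The 2D libraries of each line enter all 3 formats' differences.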

How the results depend on the processing

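Of 1808 values recomputed under the alternatives for the 8 genes, 1739 kept their direction and their side of the threshold, 38 lost a call, 11 gained one and 20 turned direction. With median-ratio scaling 2 genes were called higher in PANC-1 AggreWell against 2D and 2 lower in HEK293T 30 rpm against 2D (2 also with no filter). All genes called lower in PANC-1 AggreWell numbered 4301 with that scaling, 1824 with mitochondrially encoded genes left out and 2788 as deposited. In the AggreWell difference between lines 2 genes were higher with a pseudocount of 0.1 or voom. In HEK293T 1 rpm against 2D, 0 were lower with separate fits, voom or mitochondrially encoded genes left out. In HEK293T 30 rpm against 1 rpm, 1 was lower with separate fits, median-ratio scaling, mitochondrially encoded genes left out, no filter or a pseudocount of 0.1. Leaving out each library in turn gave 0 to 1 lower for HEK293T 1 rpm against 2D, 1 to 2 for 30 rpm against 2D and 1 to 2 for 30 rpm against 1 rpm. Direction turned for FOS in the AggreWell line difference (0.10 with median-ratio scaling, 0.81 with a pseudocount of 0.1, 1.15 with voom), for FOSL2 in the 1 rpm line difference (-0.25 and -0.38 with the pseudocount and voom), for JUNB in that of AggreWell (-0.0318 without mitochondrially encoded genes, -0.00392 with voom, -0.0434 to 0.0403 leaving out libraries) and, with median-ratio scaling, for FOSL1 in HEK293T 1 rpm against AggreWell (-0.00799), FOSL2 in PANC-1 AggreWell (-0.0586) and JUNB in HEK293T AggreWell (-0.00916). Leaving out libraries gave -0.0371 to 0.00548 for FOS in PANC-1 1 rpm against AggreWell and -0.0362 to 0.116 for FOSL1 in HEK293T 1 rpm against AggreWell. The cause was not tested. Same-numbered libraries correlated at -0.0871 to 0.412, over 0.1 in 6 of 36 pairs, and 9 of 24 libraries were closest to their own number. All 3 pairs passed 0.1 only in HEK293T 1 rpm with 2D; there a replicate block lost 1 call (FOSL1, 0.22, adjusted p = 0.056 against 0.039), and over the 8 genes it changed no other call in any comparison. Depth limits FOS and FOSB in PANC-1 2D, which lie below 1 FPKM.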
